A study of Mus musculus with 27 samples.

Results

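Regulatory T cells (Tregs) restrain other immune cells through a small set of secreted proteins, surface enzymes and granule proteases, and the messenger RNA of these suppressive effector molecules was followed here through Treg development. The 10 genes were listed by name for their link to Treg suppression: Il10, Ebi3, Il12a, Tgfb1, Lrrc32, Entpd1, Nt5e, Gzmb, Fgl2 and Penk. Every probe set that the platform's gene table assigns to 1 of them alone was taken. That gave 15 probe sets for 9 of the 10 genes, out of 34958 single-symbol probe sets for 18194 genes, and Lrrc32 was not analysed here. Where a gene had several probe sets, the one with the highest mean over all arrays, called leading below, stands for the gene, and the others are described beside it.

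The arrays, 27 in all, came from T cells of BALB/c mice, 3 arrays for each of 9 sorted groups. CD4 single-positive thymocytes were divided by Foxp3, with GFP named beside it in the labels, and by CD24, a surface protein lost as thymocytes mature. This gave Foxp3+GFP+ and Foxp3-GFP- cells of the CD24hi, CD24int and CD24lo gates, from high to low CD24. The labels call the Foxp3- cells Treg too, but the design sets them against the Foxp3+ cells as conventional T cells. The remaining groups were thymic Treg precursors, Foxp3- and CD25+ according to the series title, and lymph node cells, either Tregs or naive T cells. The labels name no treatment and no age. Since they leave unsaid which animals a replicate came from, p-values here describe only the spread between these samples.

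IL-10 and TGF-beta are cytokines that dampen T cells and antigen-presenting cells, and Lrrc32 encodes the surface protein that holds latent TGF-beta on activated Tregs. Ebi3 pairs with the p35 chain encoded by Il12a to form IL-35. CD39 (Entpd1) strips phosphates from extracellular ATP and ADP, and CD73 (Nt5e) turns the AMP that results into adenosine, which acts on T cells through its own receptors. Granzyme B (Gzmb) is a protease delivered from cytotoxic granules, Fgl2 is a fibrinogen-like protein that Tregs secrete, and Penk encodes proenkephalin, the precursor of enkephalin opioid peptides.

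The sort markers followed the labels. Foxp3 averaged 9.90 to 10.07 log2 units in the 3 Foxp3+ thymic groups and lymph node Tregs, and 3.80 to 4.17 in the other 5 groups. Il2ra, which encodes CD25, averaged 8.16 in precursors, and Cd24a fell along the CD24 gates in both lineages. Cd24a was not matched between all compared groups. It was higher in Foxp3+ than in Foxp3- cells at CD24lo, a limma call lost without replicate 1 of Foxp3- CD24lo (1.16, adjusted p = 0.0798). It was lower in Foxp3+ CD24hi cells than in precursors, lost without precursor replicate 3 or replicate 1 or 2 of Foxp3+ CD24hi (adjusted p = 0.0952 to 0.149). Between lymph node Tregs and naive cells, and between precursors and Foxp3- CD24hi cells, Cd24a did not pass in the reported fit. With replicate number as a block it did, higher in lymph node Tregs (1.11, adjusted p = 0.000709) and in precursors (0.81, adjusted p = 0.015). Replicate 3 of Foxp3- CD24hi stood apart in its liver transcripts, with a summed intensity of 7100 over 5 liver genes against 94.9 to 137 on every other array. Leaving it out moved 2 calls among the leading probe sets, both given below. Summed T cell markers ran from 10400 to 17500 over the 27 arrays.

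Which effector genes passed between Tregs and conventional T cells varied with the stage, from 4 of 9 at CD24hi to 7 of 9 in lymph node. In lymph node, Nt5e, Penk, Fgl2, Gzmb, Il10, Ebi3 and Entpd1 were all higher in Tregs, by 2.54 to 4.88 log2 units, while Il12a and Tgfb1 did not pass. In thymus at low CD24, Penk, Ebi3, Nt5e and Il10 were higher in Foxp3+ cells, while Gzmb and Fgl2 were higher in Foxp3- cells. By leading probe sets, 7 of 9 members rose in lymph node Tregs, as did 7.57% of all 18194 genes. At CD24hi 4 of 9 rose (7.88% of all genes rose), and at CD24int 6 of 9 rose (8.23%). At CD24lo 4 rose (9.44%) and 2 fell (10.6%). Averaged over the 3 CD24 levels, 5 rose (14.1%) and 1 fell (15.6%). The median difference of the 9 members was 3.23 in lymph node, beside -0.04 for all genes, and 0.37 at CD24lo, beside -0.01. A rise or fall means an adjusted p under 0.05 in limma over all 34958 probe sets, values are log2 intensities, and differences are the group named first minus the second, ± the standard error, with n = 3 arrays a group. In such sorted bulk samples, fewer cells making a transcript and less of it per cell cannot be told apart.

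**Figure D1:**
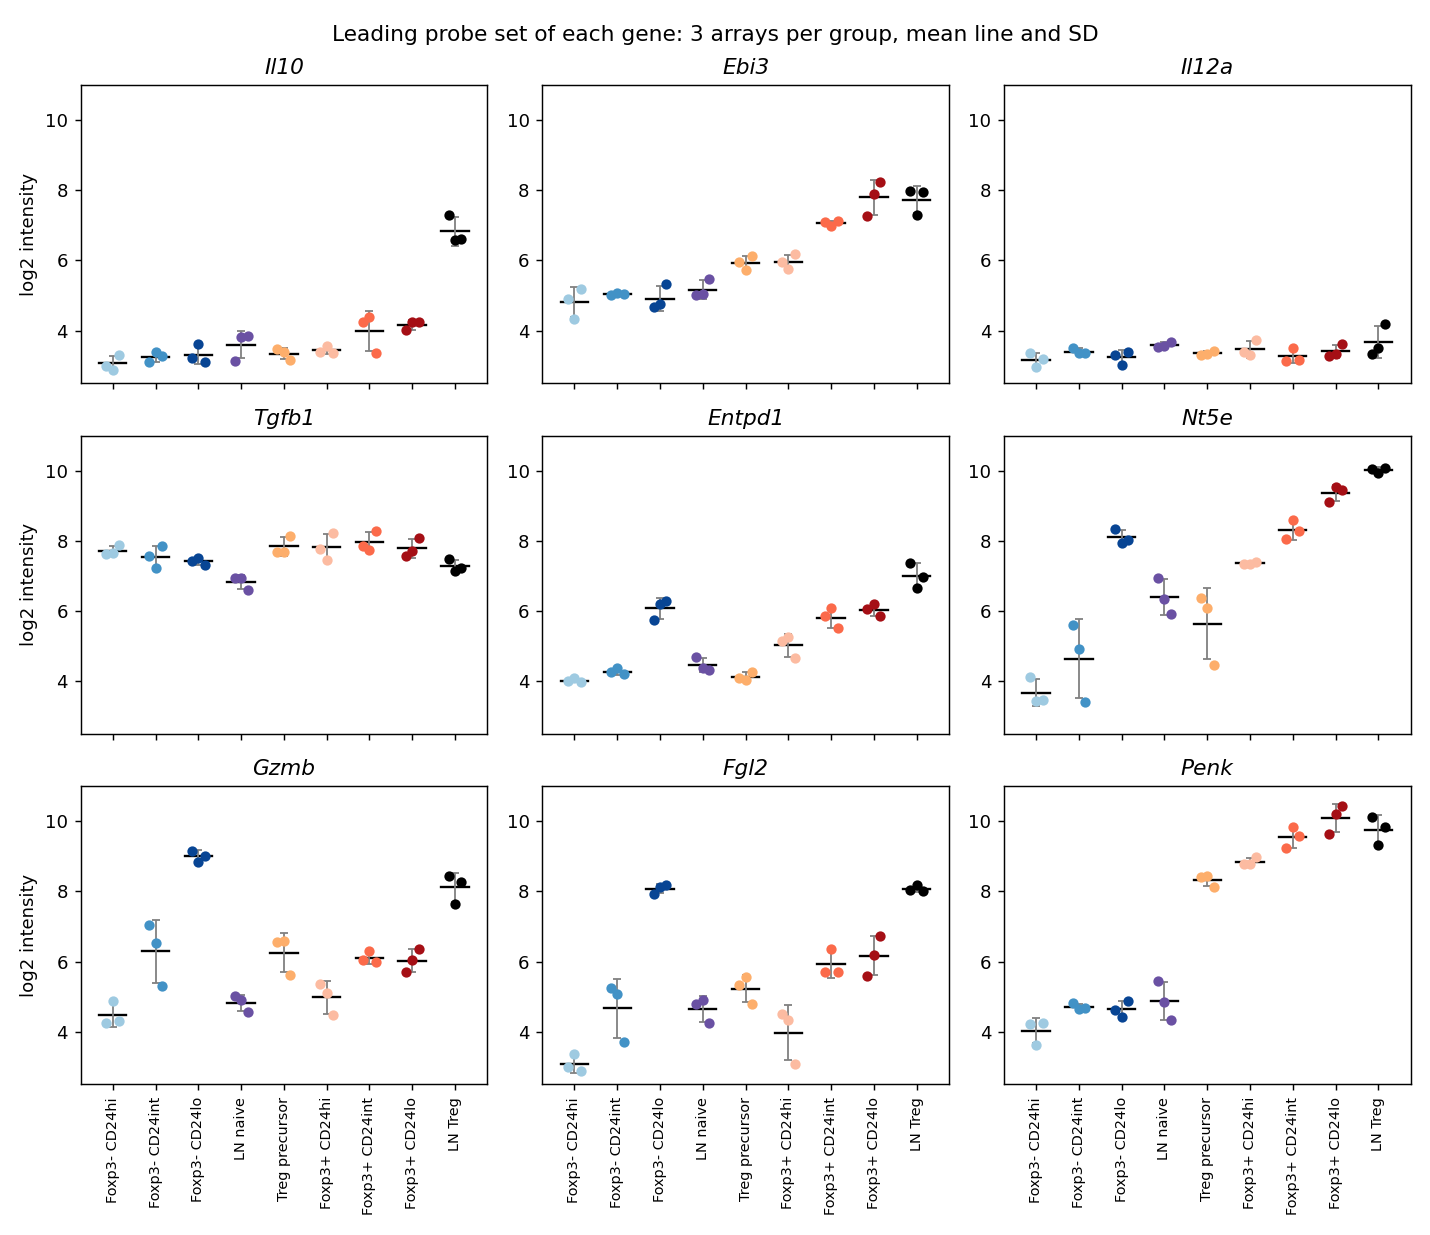
Log2 intensity (vertical axis) of the leading probe set of each measured gene in the 9 groups (horizontal axis), with 1 point per array, a line at the mean and bars of 1 SD. Il10 stands out in lymph node Tregs (6.83), Penk and Ebi3 are high in Foxp3+ groups, and Gzmb and Fgl2 peak in both Foxp3- CD24lo cells and lymph node Tregs.

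**Figure D2:**
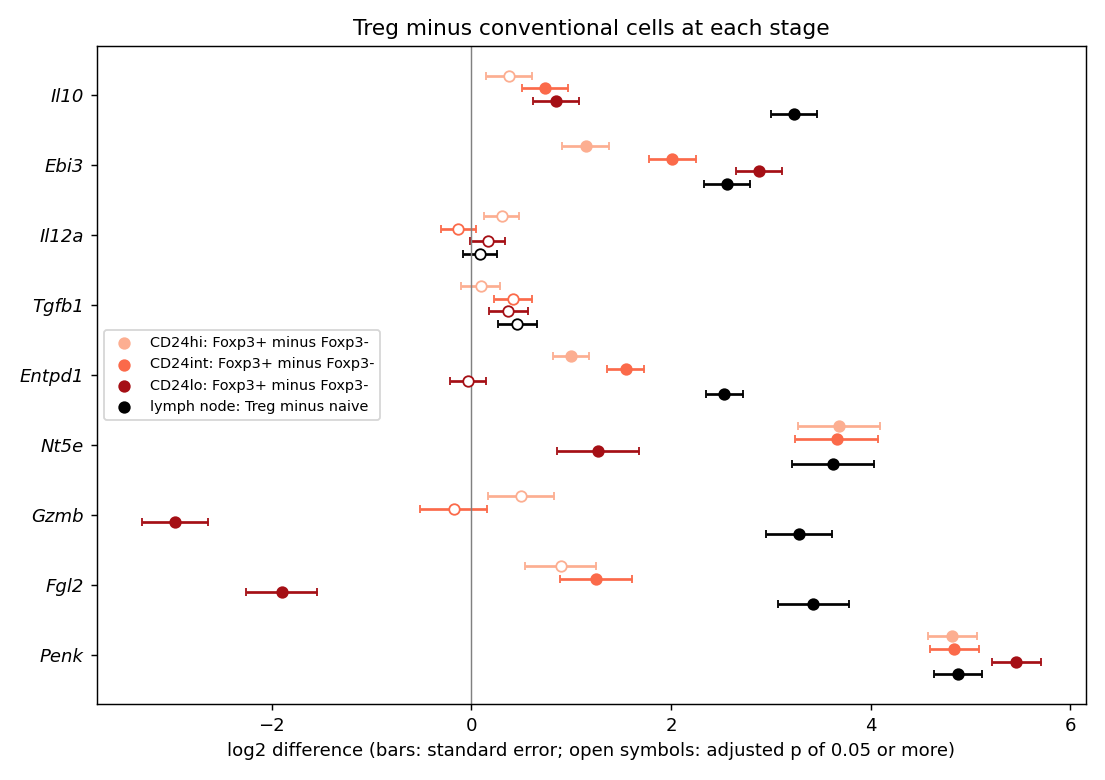
Log2 difference between Tregs and conventional cells (horizontal axis) for each gene at the 3 CD24 levels in thymus and in lymph node, with bars of 1 standard error; open symbols did not pass. Gzmb and Fgl2 lie at -2.97 and -1.90 at CD24lo and at 3.29 and 3.43 in lymph node.

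Il10 was close to the low end of the array in every thymic group and rose in lymph node Tregs. The 3 lymph node Treg arrays read 7.30, 6.57 and 6.62, against 3.15, 3.81 and 3.84 in naive cells. Foxp3+ CD24lo cells read 4.01, 4.25 and 4.24, and Foxp3- CD24lo cells 3.22, 3.62 and 3.11. Arrays did not overlap in either pair. The difference was 3.23 ± 0.23 in lymph node, or 9.39-fold (adjusted p = 2.03e-10), and 0.85 ± 0.23 at CD24lo (adjusted p = 0.00964). At CD24int it was 0.74 ± 0.23 (adjusted p = 0.0346), where replicate 3 of the Foxp3+ cells, at 3.35, lay within the range of the Foxp3- arrays. That CD24int call was lost without any single array of Foxp3- CD24int or without replicate 1 or 2 of Foxp3+ CD24int (adjusted p = 0.0517 to 0.205), and the CD24lo call without replicate 3 of Foxp3- CD24lo (0.0572). Over all arrays the mean of this probe set lay at percentile 29.1 of all probe sets, and its folds are compressed near that level.

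The 2 chains of IL-35 had unlike values. Ebi3 read 7.26, 7.90 and 8.23 in Foxp3+ CD24lo cells and 4.66, 4.74 and 5.33 in Foxp3- CD24lo cells. In lymph node it read 7.97, 7.28 and 7.95 in Tregs and 5.01, 5.03 and 5.47 in naive cells. Tregs were above conventional cells on every array at each stage, and the conventional groups stayed between 4.81 and 5.17 on average. The difference grew from 1.15 ± 0.23 at CD24hi (adjusted p = 0.00104) to 2.01 ± 0.23 at CD24int and 2.88 ± 0.23 at CD24lo (adjusted p = 1.2e-09). The test of CD24lo against CD24hi differences gave 1.74 ± 0.33 (adjusted p = 0.00111). Il12a, by contrast, averaged 3.17 to 3.68 in all 9 groups and passed in 0 of 15 limma comparisons, also at an unadjusted p under 0.05 (0 of 15). Its lymph node difference was 0.09, with a 95% interval from -0.27 to 0.44. The mean of its probe set lay at percentile 20 of all probe sets.

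The sequence just upstream of Ebi3 is shown because Ebi3 rose along the Foxp3+ stages without a matching rise in Foxp3- cells. It holds the 250 bases before the gene's start on the plus strand, chr17:55952373-55952622 of GRCm38.p6 (RefSeq), and capitals mark its match to the NF-kB motif.
Ebi3: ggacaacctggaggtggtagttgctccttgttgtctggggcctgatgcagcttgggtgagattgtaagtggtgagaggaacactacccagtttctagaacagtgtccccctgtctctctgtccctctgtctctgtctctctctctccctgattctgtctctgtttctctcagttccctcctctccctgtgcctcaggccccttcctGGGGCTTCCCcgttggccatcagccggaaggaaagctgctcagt
Upstream sequences were found for 7 of the 10 members and searched on both strands for 6 motifs, namely forkhead (TGTTTAC), STAT (TTCNNNGAA), AP-1 (TGANTCA), the NBRE of nuclear receptors (AAAGGTCA), RUNX (TGTGGT) and NF-kB. The NF-kB match begins 44 bases before the start, and 3.9% of 32851 promoters of the same length hold one. A match is a string of letters, not a shown binding site.

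Tgfb1 was abundant and nearly level. Its leading probe set averaged 7.41 to 7.96 in the thymic groups, 7.29 in lymph node Tregs and 6.83 in naive cells. Arrays read 7.49, 7.15 and 7.23 in lymph node Tregs and 6.94, 6.93 and 6.61 in naive cells, which did not overlap. The difference of 0.46 (95% interval 0.06 to 0.86) had an adjusted p of 0.17. Averaged over CD24 it was 0.29 ± 0.11 with an adjusted p of 0.0529. This passed under quantile normalization (adjusted p = 0.0253) and without several single arrays, among them replicate 3 of Foxp3- CD24hi, the array with liver transcripts (0.32, adjusted p = 0.0461). Tgfb1 passed in 0 of 15 limma comparisons, with 5 at an unadjusted p under 0.05. The second probe set spanned 0.55 log2 units between group means and did not pass in the averaged or lymph node comparison.

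Genes that activate or receive TGF-beta moved in both directions. Of 20 measured genes of that list, 10 rose (14.1% of all genes) and 4 fell (15.6%) in the averaged comparison. In lymph node 7 rose (7.57%) and 3 fell. The median differences of the list were 0.16 averaged and -0.0063 in lymph node, beside -0.0097 and -0.042 for all genes. Itgb8, a chain of the integrin that frees active TGF-beta, was 5.48 ± 0.10 higher in Foxp3+ thymocytes and 5.70 ± 0.18 higher in lymph node Tregs. Nrp1, a coreceptor that binds TGF-beta, was higher by 4.66 ± 0.13 and 4.34 ± 0.23. The receptor gene Tgfbr1 was 2.40 ± 0.07 higher in the averaged comparison, where Tgfbr2 did not pass (-0.17 ± 0.08). Tgfbr3, which encodes betaglycan, fell in lymph node Tregs (-2.94 ± 0.17), and the signal transducer Smad4 did not pass there (-0.23 ± 0.11). Each of these that passed had an adjusted p of at most 4.98e-12.

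By their leading probe sets, both adenosine pathway enzymes were higher in Tregs at CD24hi, at CD24int and in lymph node; their other probe sets are given below. Nt5e read 10.05, 9.93 and 10.07 in lymph node Tregs and 6.93, 6.33 and 5.92 in naive cells. In Foxp3+ cells it averaged 7.36, 8.30 and 9.36 from CD24hi to CD24lo. In Foxp3- cells it averaged 3.67, 4.64 and 8.09 over the same gates. Nt5e was therefore 3.69 ± 0.41 higher in Foxp3+ cells at CD24hi, 3.66 ± 0.41 at CD24int, 1.27 ± 0.41 at CD24lo (adjusted p = 0.0337) and 3.62 ± 0.41 in lymph node. The CD24lo call was lost without replicate 2 or 3 of either group (adjusted p = 0.0924 to 0.107), and the drop from CD24hi to CD24lo was -2.42 ± 0.58 (adjusted p = 0.0102).

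Entpd1 read 7.38, 6.65 and 6.97 in lymph node Tregs against 4.70, 4.37 and 4.32 in naive cells. At CD24lo it read 6.06, 6.19 and 5.86 in Foxp3+ cells and 5.74, 6.19 and 6.28 in Foxp3- cells. The lymph node arrays did not overlap and the CD24lo arrays did. Entpd1 was higher in Tregs by 1.00 ± 0.18 at CD24hi, 1.54 ± 0.18 at CD24int and 2.54 ± 0.18 in lymph node (adjusted p = 2.63e-10). At CD24lo the difference was -0.03, with a 95% interval from -0.41 to 0.35.

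Further probe sets of these enzymes gave partly different values. The 3 Entpd1 probe sets correlated at r = 0.94 to 0.97 over the 9 group means, and all rose at CD24int and in lymph node Tregs. At CD24hi the other 2 did not pass (0.45 ± 0.16 and 0.58 ± 0.24, adjusted p = 0.0565 and 0.12). The first of these passed with replicate number as a block (adjusted p = 0.0124) and without any one of several arrays (0.0308 to 0.0497). The other passed without replicate 1 of Foxp3+ CD24hi (0.85, adjusted p = 0.0207). The second Nt5e probe set rose in lymph node (1.29 ± 0.19) but did not pass at CD24hi (0.27 ± 0.19), CD24int (0.51 ± 0.19) or CD24lo (0.51 ± 0.19). The remaining Nt5e probe set was one that spanned 0.27 log2 units between group means and passed in none of the averaged, CD24hi, CD24int, CD24lo and lymph node comparisons. Of 17 listed genes of nucleotide and adenosine handling 12 were measured. In the averaged comparison 5 rose (14.1% of all genes) and 3 fell (15.6%), with a median of 0.080. In lymph node 3 rose (7.57%) and 2 fell (median 0.29). Ada, which destroys adenosine, was lower in Tregs, by -1.92 ± 0.13 averaged and -0.84 ± 0.22 in lymph node (adjusted p = 0.012). Entpd5, an intracellular nucleotidase, fell by 1.28 and 0.85, the ATP receptor gene P2rx7 rose by 0.95 ± 0.12 averaged, and the nucleoside transporter gene Slc29a1 rose by 0.86 ± 0.21 in lymph node. In lymph node Ada did not pass without naive replicate 3 or Treg replicate 2 (adjusted p = 0.085 and 0.102), nor Slc29a1 without naive replicate 2 or Treg replicate 1 (0.0607 and 0.055). The adenosine receptor gene Adora3 (0.03 averaged) and Dpp4, which encodes the adenosine deaminase binding protein CD26 (0.45 in lymph node, adjusted p = 0.0906), did not pass. Dpp4 had adjusted p-values of 0.0211 when replicate number was a block, 0.009 over averaged probe sets and 0.016 without naive replicate 3.

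**Figure D3:**
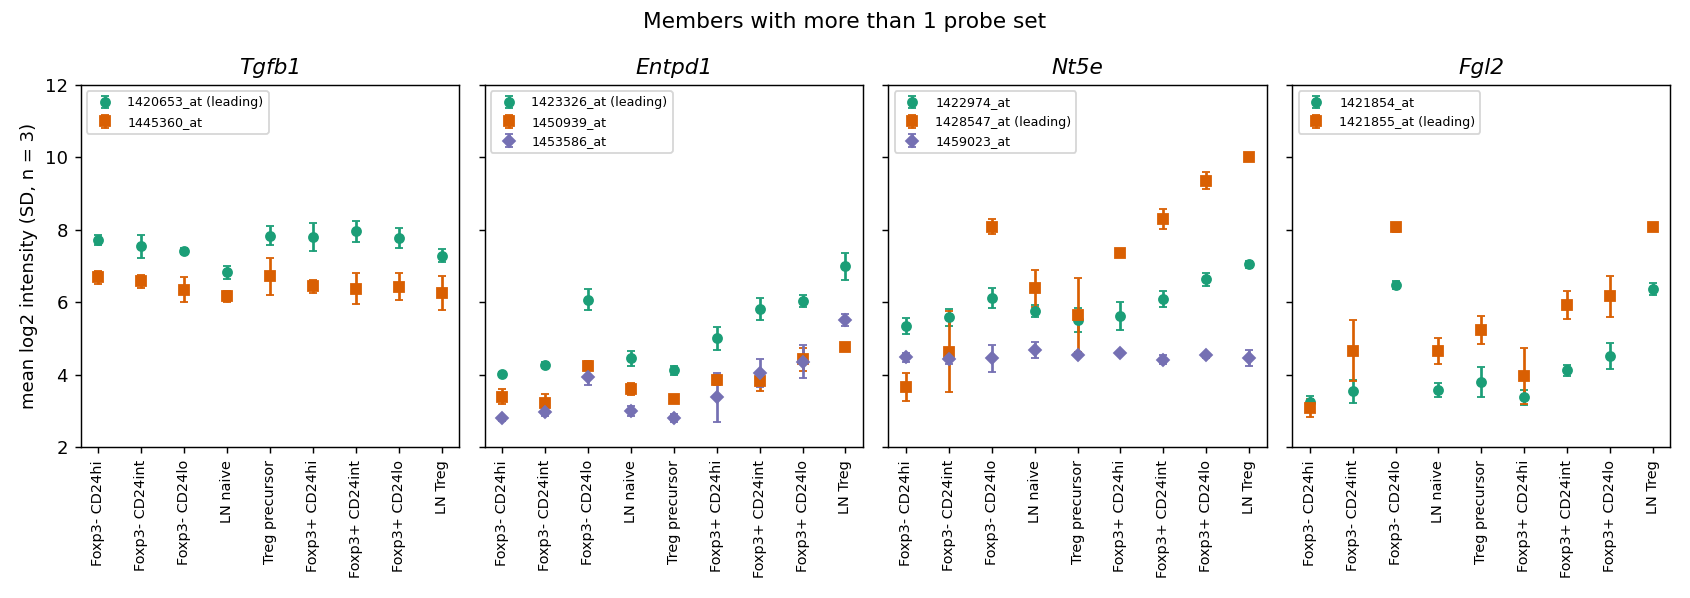
Mean log2 intensity with SD (n = 3, vertical axis) of every probe set of the 4 genes that have more than 1, by group (horizontal axis). The 3 Entpd1 probe sets and the 2 Fgl2 probe sets keep the same shape, and 1 of the 3 Nt5e probe sets is flat.

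Gzmb and Fgl2 were lower in Foxp3+ than in Foxp3- cells at CD24lo in thymus and higher in Tregs in lymph node. Gzmb read 9.15, 8.83 and 9.02 in Foxp3- CD24lo cells and 5.69, 6.05 and 6.34 in Foxp3+ CD24lo cells. In lymph node it read 8.45, 7.63 and 8.26 in Tregs and 5.01, 4.90 and 4.57 in naive cells. Neither pair overlapped. The difference was -2.97 ± 0.33 at CD24lo (adjusted p = 2.39e-07) and 3.29 ± 0.33 in lymph node (adjusted p = 7.6e-08), and the test between them gave 6.26 ± 0.47 (adjusted p = 2.45e-09). At CD24hi and CD24int Gzmb did not pass (0.50 ± 0.33 and -0.18 ± 0.33). The averaged fall of Gzmb (-0.88 ± 0.19, adjusted p = 0.000826) became 0.16 (adjusted p = 0.73) without both CD24lo groups.

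Fgl2 shared these directions at CD24lo and in lymph node but not at CD24int. Averaged over CD24 its leading probe set did not pass (0.08 ± 0.21) and its second fell (-0.42 ± 0.11). Its leading probe set read 7.93, 8.11 and 8.18 in Foxp3- CD24lo cells, 5.59, 6.20 and 6.72 in Foxp3+ CD24lo cells, 8.03, 8.20 and 8.00 in lymph node Tregs and 4.80, 4.90 and 4.24 in naive cells. Lymph node Tregs and Foxp3- CD24lo cells overlapped, and both lay above the other groups on every array. The difference was -1.90 ± 0.36 at CD24lo (adjusted p = 0.000307), 3.43 ± 0.36 in lymph node (adjusted p = 1.24e-07) and 5.33 ± 0.50 between the 2 (adjusted p = 7.79e-08). At CD24int Fgl2 was 1.25 ± 0.36 higher in Foxp3+ cells (adjusted p = 0.0205), a call lost without replicate 3 of Foxp3- CD24int (0.76, adjusted p = 0.192) or replicate 2 of Foxp3+ CD24int (1.03, adjusted p = 0.115). At CD24hi it did not pass (0.90 ± 0.36, adjusted p = 0.1), but did with replicate number as a block (adjusted p = 0.0436), without replicate 3 of Foxp3+ CD24hi (1.34, adjusted p = 0.00988) and without replicate 3 of Foxp3- CD24int (adjusted p = 0.0481). The second probe set had -1.97 ± 0.20 at CD24lo and 2.78 ± 0.20 in lymph node. At CD24int it did not pass in the reported fit (0.58). It did under quantile normalization (adjusted p = 0.0425), with replicate number as a block (0.0205) and without any one of several arrays.

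The upstream sequences of Gzmb and Fgl2 are shown because both genes peaked in the same groups. Each holds the 250 bases before the gene's start in GRCm38.p6 (RefSeq), Gzmb on the minus strand at chr14:56262335-56262584 and Fgl2 on the plus strand at chr5:21372423-21372672. Capitals mark motif matches.
Gzmb: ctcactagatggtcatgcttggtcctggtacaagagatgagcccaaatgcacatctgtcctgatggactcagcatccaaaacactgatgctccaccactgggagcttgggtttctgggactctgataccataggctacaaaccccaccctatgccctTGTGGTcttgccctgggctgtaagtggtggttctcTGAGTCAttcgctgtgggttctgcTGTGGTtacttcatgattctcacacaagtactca
Fgl2: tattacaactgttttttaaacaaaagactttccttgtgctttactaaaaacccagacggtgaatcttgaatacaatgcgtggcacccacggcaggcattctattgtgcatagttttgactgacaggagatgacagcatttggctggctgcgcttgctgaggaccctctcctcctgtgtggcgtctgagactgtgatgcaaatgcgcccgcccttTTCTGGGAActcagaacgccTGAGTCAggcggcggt
Both hold the AP-1 letters TGAGTCA, beginning 58 bases before the start of Gzmb and 16 bases before that of Fgl2, and 6.75% of promoters hold an AP-1 match. Gzmb also has 2 RUNX matches, 93 and 34 bases before its start (14% of promoters), and Fgl2 has the STAT match TTCTGGGAA 36 bases before its start (7.02%).

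Markers of natural killer and innate-like T cells moved with these genes in the Foxp3- cells. The summed intensity of 8 measured markers was 4960 to 5170 in Foxp3- CD24lo cells, 191 to 296 in Foxp3- CD24hi cells, 562 to 832 in Foxp3+ CD24lo cells and 420 to 511 in lymph node Tregs. Of the 8, 7 rose (8.76% of all genes) and 0 fell from Foxp3- CD24hi to CD24lo cells. In Foxp3+ against Foxp3- cells at CD24lo 1 rose (9.44%) and 6 fell (10.6%). Zbtb16, the transcription factor of innate-like T cells, averaged 10.90 in Foxp3- CD24lo cells and 4.91 in Foxp3+ CD24lo cells, and the receptor gene Klrd1 averaged 9.74 and 2.53. Nkg7, which is also in the granule list below, averaged 8.68 to 9.05 in the Foxp3+ thymic groups, where Klrd1 averaged 2.53 to 3.18. Within Foxp3- CD24int cells and within precursors, replicate 3 was lowest in this sum (418 and 690) and also in Gzmb, Fgl2 and Nt5e. Within Foxp3+ CD24hi cells replicate 3 was highest in the sum (1040) and lowest in Gzmb (4.47) and Fgl2 (3.08). Averaged over the 9 groups, replicate 3 deviated from the group means by -0.33 in Nt5e, -0.28 in Fgl2 and -0.25 in Gzmb. Markers of antigen-presenting cells summed to 809 to 1180 in Foxp3- CD24lo cells and 298 to 384 in Foxp3+ CD24lo cells, where 4 of 9 fell and 0 rose. The part of both cell types in the results at CD24lo was not tested. Lymph node Tregs carried high Gzmb and Fgl2 with the marker sum below that of naive cells (812 to 1080).

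**Figure D4:**
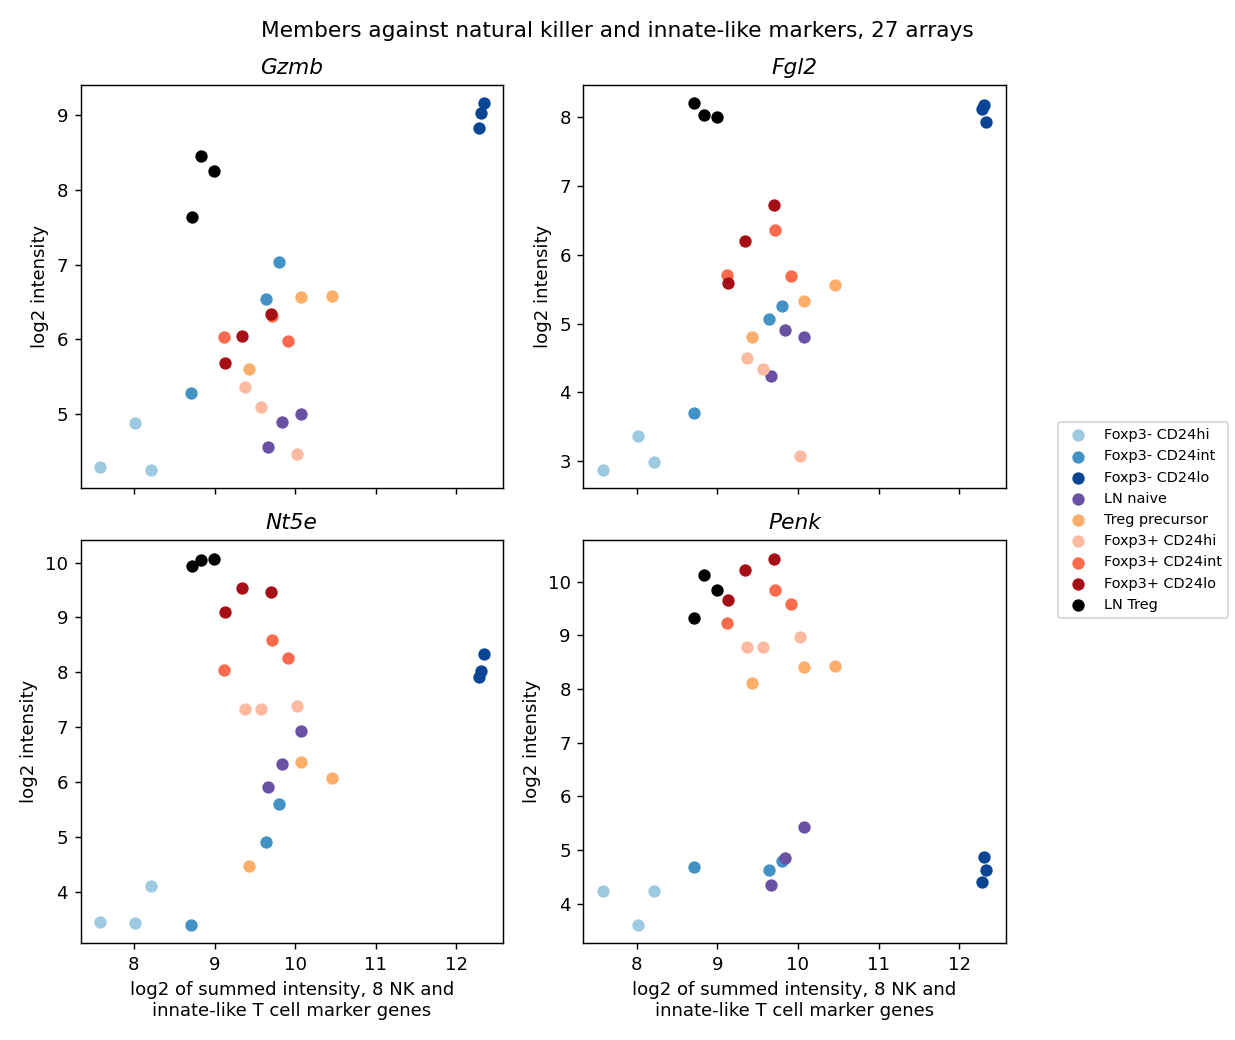
Log2 intensity of 4 genes (vertical axes) against the log2 of the summed intensity of 8 natural killer and innate-like T cell marker genes (horizontal axes), with 1 point per array and colours for the 9 groups. Foxp3- CD24lo arrays lie far right with high Gzmb, Fgl2 and Nt5e and low Penk, and lymph node Tregs have high values of all 4 at a low marker sum.

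Other genes of the cytotoxic granule were read in lymph node Tregs and in thymus. Of 16 measured, 3 rose (7.57% of all genes rose) and 1 fell in lymph node Tregs (median 0.11). In Foxp3+ cells at CD24lo 2 rose (9.44%) and 6 fell (10.6%). From Foxp3- CD24hi to CD24lo 11 rose (8.76%) and 1 fell. Perforin (Prf1), which lets granzymes enter a target cell, fell in lymph node Tregs (-1.41 ± 0.17, adjusted p = 8.66e-07). Srgn, the granule proteoglycan, rose there by 0.84 ± 0.17, Rab27a, which docks granules, rose by 0.69 ± 0.18, and the cathepsin gene Ctsw did not pass (-0.11 ± 0.13). The Rab27a call was lost without naive replicate 2 or Treg replicate 1 or 3 (adjusted p = 0.0572 to 0.127) and with averaged probe sets (0.123). In the averaged comparison 6 rose (14.1% of all genes) and 4 fell (15.6%), with a median of 0.022. The risers included the granzyme inhibitor relative Serpinb6b (1.501 ± 0.109), Ctsw (0.55 ± 0.07) and Nkg7 (1.62 ± 0.21), and Unc13d did not pass (-0.0043 ± 0.1001). Of 4 genes for FGL2 receptors and related proteins, 2 rose (14.1% of all genes) and 1 fell (15.6%) averaged (median 0.049). In lymph node 1 rose (7.57%) and 1 fell (median -0.070). Lag3 rose by 0.69 ± 0.11 averaged and 1.40 ± 0.19 in lymph node, and the Fc receptor gene Fcgr3 fell by 0.64 and 0.76. The Fcgr3 calls were lost averaged without both CD24lo groups (-0.17, adjusted p = 0.509) and in lymph node without naive replicate 2 or 3 or Treg replicate 1 or 2 (0.0706 to 0.137). Fcgr2b rose by 0.31 ± 0.08 averaged (reversed to -0.094 with the mean of its probe sets) and did not pass in lymph node (-0.10 ± 0.15), nor did Fgl1 averaged (-0.21 ± 0.20).

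Of the 9 genes, Penk had the largest difference between the lineages in the averaged and the lymph node comparison. It read 9.65, 10.21 and 10.43 in Foxp3+ CD24lo cells and 4.63, 4.41 and 4.87 in Foxp3- CD24lo cells. In lymph node it read 10.12, 9.31 and 9.83 in Tregs and 5.43, 4.86 and 4.35 in naive cells. Every Treg array, at 8.78 or more, lay above every array of a conventional group, at 5.43 or less. The difference was 4.82, 4.84 and 5.46 from CD24hi to CD24lo and 4.88 in lymph node, each ± 0.24, with adjusted p of at most 4.88e-13. At CD24lo this was a 44-fold difference. Neither the change of the difference from CD24hi to CD24lo (0.64 ± 0.34, adjusted p = 0.387) nor that from CD24lo to lymph node (-0.58 ± 0.34, adjusted p = 0.426) passed.

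Other genes of the opioid system were read from the same fits. Of 11 measured genes for opioid peptides, processing enzymes and receptors, 0 passed in lymph node with limma, where 7.57% of all genes rose. At an unadjusted p under 0.05 there were also 0. The medians were -0.15 in lymph node and -0.0085 averaged. In the averaged comparison 1 rose (14.1% of all genes) and 1 fell (15.6%). Those were the carboxypeptidase gene Cpe (0.20 ± 0.07, adjusted p = 0.0391, lost without any one of several arrays at 0.0521 to 0.0994) and the convertase gene Pcsk1 (-0.48 ± 0.09, adjusted p = 0.000155), which reversed to 0.12 without the CD24lo groups. Pomc, the precursor of endorphin, did not pass (-0.05 averaged and -0.15 in lymph node).

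Precursors, whose Foxp3 averaged 3.97, held part of the effector set. Compared with Foxp3- CD24hi cells 5 of 9 members were higher, as were 4.72% of all genes (7.22% with replicate number as a block). Penk read 8.41, 8.43 and 8.12 in precursors and 4.23, 3.61 and 4.24 in Foxp3- CD24hi cells, a difference of 4.29 ± 0.24 (adjusted p = 2.46e-11). Fgl2 was higher by 2.15 ± 0.36, Nt5e by 1.97 ± 0.41, Gzmb by 1.77 ± 0.33 and Ebi3 by 1.13 ± 0.23, and none of the 5 overlapped between the groups, where 22.1% of all genes had no overlap in either direction. Il10, Il12a, Tgfb1 and Entpd1 did not pass. Nor did the other probe sets of Nt5e and Fgl2, the second ones averaging 5.52 against 5.35 for Nt5e and 3.79 against 3.26 for Fgl2. The second Fgl2 probe set passed with the block (adjusted p = 0.0478) and without replicate 3 of the precursors (0.77, adjusted p = 0.0166). Natural killer and innate-like markers summed to 690 to 1410 in precursors, with 4 of 8 higher than in Foxp3- CD24hi cells, and markers of double-positive thymocytes to 767 to 2210 against 446 to 548. Their part in these differences was not tested.

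From precursors to Foxp3+ CD24hi cells 2 members rose (6.32% of all genes, 9.42% with the block) and 2 fell (8.6%, and 13.4% with the block). Nt5e rose by 1.72 ± 0.41 (adjusted p = 0.00569) and Entpd1 by 0.89 ± 0.18 (adjusted p = 0.00152). The Nt5e call was lost without replicate 3 of the precursors (1.14, adjusted p = 0.0628). The other Nt5e probe sets did not pass, the second averaging 5.52 in precursors and 5.63 in Foxp3+ CD24hi cells. Gzmb fell by 1.27 and Fgl2 by 1.26 (adjusted p = 0.0108 and 0.0193). Both falls were lost without replicate 1 or 2 of the precursors or replicate 3 of Foxp3+ CD24hi (adjusted p = 0.0546 to 0.143). The second Fgl2 probe set, at 3.79 in precursors and 3.38 in Foxp3+ CD24hi cells, did not pass. It did without replicate 3 of the precursors (-0.65, adjusted p = 0.0332). In the same comparison 4 of 5 double-positive thymocyte markers fell (median -2.03), to a sum of 224 to 288 in Foxp3+ CD24hi cells. Of the 8 natural killer and innate-like markers 1 rose and 4 fell (median -0.95), with a sum of 663 to 1040 there, and the part of either list was not tested. Penk (0.53 ± 0.24, adjusted p = 0.182) and Ebi3 (0.02 ± 0.23) did not pass.

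Within Foxp3+ thymocytes, some effector genes rose between the outer CD24 gates. From CD24hi to CD24lo 5 of 9 rose, as did 1.89% of all genes (3.94% with the block). Fgl2 rose by 2.20 ± 0.36, Nt5e by 2.00 ± 0.41, Ebi3 by 1.84 ± 0.23, Penk by 1.25 ± 0.24 and Entpd1 by 1.02 ± 0.18, with adjusted p of at most 0.00701. Gzmb (1.05 ± 0.33, adjusted p = 0.127) and Il10 (0.73 ± 0.23, adjusted p = 0.128) did not pass. Gzmb passed without replicate 3 of Foxp3- CD24int (adjusted p = 0.039). From CD24hi to CD24int 1 of 9 passed, Fgl2 at 1.94 ± 0.36 (adjusted p = 0.0192), where 0.176% of all genes rose. That call was lost without replicate 3 of CD24hi or replicate 1 or 2 of CD24int (adjusted p = 0.0646 to 0.173). With the block 3 passed, Ebi3 (1.10, adjusted p = 0.00398), Entpd1 (0.80, 0.0416) and Fgl2, with 0.654% of all genes. The second Fgl2 probe set did not pass in the reported fit but did with the block (0.74, adjusted p = 0.0499). Ebi3 (adjusted p = 0.0614 without the block) also passed without any one of several arrays, among them the one with liver transcripts (0.0447). From CD24int to CD24lo 0 of 9 passed in limma and 3 had an unadjusted p under 0.05, with 0.011% of all genes changed (0.0605% with the block).

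Within Foxp3- thymocytes 4 of 9 rose from CD24hi to CD24lo, as did 8.76% of all genes. Fgl2 rose by 4.99 ± 0.36, Gzmb by 4.52 ± 0.33, Nt5e by 4.42 ± 0.41 and Entpd1 by 2.05 ± 0.18, with adjusted p of at most 1.59e-08. Penk (0.61 ± 0.24, adjusted p = 0.11), Ebi3 (0.10 ± 0.23) and Il10 (0.25 ± 0.23) did not pass. The effect of Foxp3 class changed between CD24hi and CD24lo for 5 members, 1 upwards (3.68% of all genes) and 4 downwards (4.06%). It grew for Ebi3 and shrank or turned for Gzmb (-3.47 ± 0.47), Fgl2 (-2.80 ± 0.50), Nt5e and Entpd1 (-1.03 ± 0.26). The Entpd1 value did not pass without replicate 2 of Foxp3+ CD24hi (adjusted p = 0.0503), with averaged probe sets (-0.49, adjusted p = 0.233) or with 16 added before log2 (-0.62, adjusted p = 0.0722). For Nt5e the second probe set did not pass (0.23 ± 0.27, adjusted p = 0.78).

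Lymph node Tregs were compared with the most mature thymic Tregs. Of 9 members 4 rose, as did 2.73% of all genes (4.97% with the block). Il10 rose most, by 2.66 ± 0.23 (adjusted p = 5.56e-08), followed by Gzmb (2.08 ± 0.33), Fgl2 (1.91 ± 0.36) and Entpd1 (0.96 ± 0.18). Penk and Ebi3 were at -0.34 ± 0.24 and -0.06 ± 0.23, with overlapping arrays, and Nt5e did not pass (0.66 ± 0.41). Markers of B cells (2 of 6 rose, 0 fell) summed to 299 to 478 in lymph node Tregs and 142 to 160 in Foxp3+ CD24lo cells. Those of antigen-presenting cells (2 of 9 rose, 0 fell) summed to 523 to 821 and 298 to 384, and the part of either list in these rises was not tested. In the conventional lineage, naive lymph node cells compared with Foxp3- CD24lo cells had 4 members lower, as were 8.05% of all genes. The differences were -4.18 ± 0.33 for Gzmb, -3.42 ± 0.36 for Fgl2, -1.70 ± 0.41 for Nt5e and -1.61 ± 0.18 for Entpd1. The other Nt5e probe sets did not pass, the second averaging 5.76 in naive and 6.12 in Foxp3- CD24lo cells. The Treg effect differed between lymph node and CD24lo for 5 members, all upwards, as for 6.55% of all genes. These were Gzmb, Fgl2, Entpd1 (2.57 ± 0.26), Il10 (2.38 ± 0.33) and Nt5e (2.36 ± 0.58). The second Nt5e probe set did not pass there. It did with the compared groups alone (0.78, adjusted p = 0.0381), with the block (0.0177) and without replicate 1 of Foxp3- CD24lo (0.94, adjusted p = 0.0367). The same 4 lymph node and CD24lo groups enter these comparisons, so they are not independent of each other.

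Receptors for IL-10 and IL-12 family cytokines and the factors linked to effector genes were read from the same fits. Of 7 IL-10 receptor and signalling genes 4 rose averaged (median 0.85) and 3 in lymph node (median 0.88), with 0 falling. Of all genes 14.1% rose averaged and 7.57% in lymph node. Bcl3, a nuclear IkB protein, rose by 1.28 ± 0.07 and 1.03 ± 0.12, and Il10rb by 1.32 ± 0.07 and 0.95 ± 0.13. Stat3 rose by 0.85 ± 0.09 averaged, Il10ra rose by 2.04 ± 0.21 in lymph node, and Jak1 did not pass (-0.03 and -0.20). Of 10 listed IL-12 family genes 7 were measured (medians -0.034 and 0.025). Stat4 (1.28 ± 0.07) and Il6st (0.71 ± 0.08) rose averaged, Il12rb1 alone rose in lymph node (1.57 ± 0.22), and Il27ra passed in neither (0.02 and 0.02). Of 15 factors linked to Treg effector genes 11 rose (14.1% of all genes) and 3 fell (15.6%) averaged (median 0.90). In lymph node 13 rose (7.57%) and 0 fell (median 2.31). Besides Foxp3 itself, Ikzf4 was higher by 3.05 ± 0.07 and 2.92 ± 0.12 and Ikzf2 by 2.58 ± 0.10 and 4.65 ± 0.17. Maf did not pass averaged (0.41 ± 0.25), but did without both CD24lo groups (adjusted p = 0.000691). Egr3 did not pass in lymph node (0.13 ± 0.21).

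The order of levels over the 9 groups was not the same for all members, but they did not fall into separate sets. Over the 9 group means Ebi3 and Penk correlated at r = 0.93, Gzmb and Fgl2 at 0.93, and Entpd1 and Nt5e at 0.94, whereas Gzmb and Penk stood at 0.11. Links between these pairs were also high, with Entpd1 and Fgl2 at 0.86, Ebi3 and Nt5e at 0.80 and Nt5e and Fgl2 at 0.79. These describe 9 points that share arrays, and no test was made. Among 3144 other genes spanning at least 1 log2 unit, those most like Penk were Stx11, Cd83 and Ccr6 (r = 0.99 each), and those most like Ebi3 were Tlcd5, Cd86 and Hif1a (0.98 to 0.99). Il10 was followed most closely by Alox8, Havcr2 and Nxpe4 (0.98 to 0.99), and Fgl2 by Maf, S100a6 and Cst7 (0.98). For Gzmb they were She, Poglut3 and Ryk (0.94 to 0.95), for Nt5e Rnf19b, Plcb3 and Pglyrp1 (0.99), for Entpd1 Ddx43, Pglyrp1 and Acsbg1 (0.97 to 0.98), and for Tgfb1 Tcf4, Cux1 and Ppp1r16b (0.96 to 0.97). Maf averaged 11.51 in Foxp3- CD24lo cells, 11.66 in lymph node Tregs and 5.85 in Foxp3- CD24hi cells, the same groups that were highest and lowest in Fgl2. Maf was picked by its correlation with Fgl2 over these same means, so this likeness is no separate result.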

How the data were processed

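The deposited table holds linear intensities of 45101 Affymetrix 3' probe sets that the authors made with RMA, per the submitters' processing notes, from 50 ng of total RNA per the labels. The version and settings of RMA, slides and scan batches are not given in the sources used here. The deposited intensity values (array medians 30.3 to 32.0) were transformed to log2 with no added constant and no filter, and detection calls were not used. Probe sets with several symbols (932) or none (9211) were left out. Symbols were matched to RefSeq (GRCm38.p6) for 34754 of 34958 probe sets. A linear model of 9 group means over 27 arrays was fitted with limma 3.58.1 in R 4.3.3 with empirical Bayes moderation, and p-values, two-sided, were adjusted by Benjamini-Hochberg over 34958 probe sets in each of 15 comparisons, after a check on simulated data. The number of arrays limits the precision, with a typical standard error of 0.15 between groups of 3.

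Replicate numbers come from the labels, which do not say what they mark. Deviations of same-numbered arrays from their group means correlated above 0.1 in every pair in 9 of 15 comparisons. These were the Foxp3 comparison at CD24hi, the lymph node comparison, all comparisons within Foxp3+ and within Foxp3- thymocytes, lymph node against thymic Tregs and both precursor comparisons (lowest r = 0.10). There, values with replicate number as a block are given beside a result where they change it.

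Genes named were the members, Foxp3, Il2ra and Cd24a, and from each list of partner genes up to 3 that passed, taken by lowest p, and the highest-mean gene that did not, in the averaged and in the lymph node comparison. They also include the 3 genes most like each member by Pearson correlation. Zbtb16, Klrd1, Nkg7 and the levels of Maf were named after their values were seen. The members and lists were chosen with earlier results of these data known. Alternatives were 1 or averaged probe sets per gene, quantile normalization, removal of dim probe sets, an added constant of 16, limma with a trend, the compared groups alone, the block and leaving out each array. The comparison without the CD24lo groups was added after seeing the data.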

Additional observations from a re-analysis of the deposited data

Results flagged for a closer look

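The effect of Foxp3 class differed between CD24 gates for 5 members. From CD24hi to CD24lo it grew for Ebi3 by 1.74 log2 units (adjusted p = 0.00111 in limma) and moved downwards for Gzmb (-3.47, 1.58e-05), Fgl2 (-2.80, 0.000615), Nt5e (-2.42, 0.0102) and Entpd1 (-1.03, 0.0139). With averaged probe sets the Entpd1 value was -0.49 (adjusted p = 0.233) and with 16 added before log2 -0.62 (0.0722), so it did not pass under either. For Ebi3 the level in Foxp3+ cells rose between these gates, by 1.84, and that in Foxp3- cells stood 0.10 apart. For the leading probe sets of Gzmb, Fgl2, Nt5e and Entpd1 the rise in Foxp3- cells was larger than that in Foxp3+ cells. This was not so for the second Nt5e probe set. From CD24hi to CD24lo it went from 5.35 to 6.12 in Foxp3- cells and from 5.63 to 6.63 in Foxp3+ cells.

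The Treg effect also differed between lymph node and CD24lo thymocytes for 5 members, and was larger in lymph node in each. The differences were 6.26 for Gzmb (adjusted p = 2.45e-09), 5.33 for Fgl2 (7.79e-08), 2.57 for Entpd1 (2.03e-07), 2.38 for Il10 (1.52e-05) and 2.36 for Nt5e (0.00995). These are leading probe sets, and the second Nt5e probe set did not pass in the reported fit. For Il10, naive and Foxp3- CD24lo cells stood 0.28 apart (adjusted p = 0.558). For the leading probe sets of Gzmb, Fgl2, Entpd1 and Nt5e, naive cells were also lower than Foxp3- CD24lo cells. The latter group had the highest natural killer and innate-like marker sum (4960 to 5170), whose part was not tested.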

How the results depend on the processing

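Counts of members called moved by over 1.5 times in few comparisons. Between Foxp3+ CD24int and CD24hi cells 1 passed in the reported fit, against 2 with 1 leading probe set per gene, with averaged probe sets, without dim probe sets and with 16 added, 3 with replicate number as a block and 0 with the compared groups alone. Leaving out single arrays gave 0 to 2 there and 2 to 4 for Foxp3+ CD24hi against precursors. Without dim probe sets 6 members were left, since Il10, Il12a and Entpd1 are dim on average. Then 2 instead of 4 passed between lymph node and CD24lo Tregs and 3 instead of 5 in the difference of the Treg effect. Without both CD24lo groups the averaged comparison reversed for Gzmb (0.16, adjusted p = 0.73), the second Fgl2 probe set (from -0.42 to 0.35, adjusted p = 0.0744) and Pcsk1 (0.12), and the leading Fgl2 probe set passed (1.07, adjusted p = 0.00259). Fcgr2b reversed to -0.094 (adjusted p = 0.151) with averaged probe sets. Besides the block values printed beside results, the block let Tgfb1 pass averaged (adjusted p = 0.0196) and between naive and Foxp3- CD24lo cells (0.015), in comparisons whose numbers do not pair the samples, and it changed no other call of a leading probe set of a member. Calls over all probe sets went from 48 to 213 (CD24int against CD24hi), 2 to 17 (CD24lo against CD24int), 666 to 1586 (CD24lo against CD24hi), 1435 to 2619 (lymph node against CD24lo Tregs), 2450 to 3906 and 4432 to 7000 (the precursor comparisons) with the block. With the compared groups alone they were 0, 0, 399, 1189, 1433 and 2271, and 2821 instead of 4239 for Foxp3+ against Foxp3- at CD24int. Il10 at CD24int and CD24lo (adjusted p = 0.114 and 0.0506) and the change of the Foxp3 effect on Entpd1 from CD24hi to CD24lo (-0.62, 0.0722) did not pass with 16 added, nor did the latter with averaged probe sets (-0.49, 0.233). With the compared groups alone Il10 at CD24int (0.119) and Fgl2 at CD24int (0.0684) and against precursors (0.0728) did not pass, while Il10 between CD24hi and CD24lo (0.0299), Nt5e between lymph node and CD24lo Tregs (0.034) and Tgfb1 between naive and Foxp3- CD24lo cells (0.0187) did. Of the partner genes, Cpe (0.0606) and Rab27a (0.113) did not. The cause of these changes was not tested.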
